A study of Mus musculus with 9 samples.

Results

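The antioxidant defence genes of mouse skin were examined in unirradiated mice lacking Cd1d and in wild-type mice. They comprise the glutathione, thioredoxin and peroxiredoxin enzymes, the superoxide dismutases, the haem oxygenases, the metallothioneins and the regulators Nfe2l2 and Keap1. Members were all probe sets whose platform annotation gives 1 gene symbol of these families. Of the 12488 probe sets on the array, 72 met this rule, and they read 56 genes. A filter on low signal kept 56 of these probe sets, which read 48 genes. The theta-class Gstt genes were counted as members. Prdx1 and Glrx3 were read by 4 probe sets annotated to several genes and are not members.

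The skin came from 5 Cd1d -/- mice (knockout 1 to 5) and 4 Cd1d +/+ mice (wild type 1 to 4). The labels call the knockouts inbred on a C57BL/6 background and the controls C57BL/6, age and sex matched, and give neither the age nor the substrain. No mouse had been irradiated, and each gave whole skin, 1 RNA sample and 1 Affymetrix MG-U74 array. Signals are given in arbitrary MAS5 units, as mean ± SD where summarised. Differences are log2 knockout minus wild type. In whole skin, fewer cells of a type and less RNA per cell cannot be told apart.

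Reactive oxygen species form in skin from metabolism, inflammation and ultraviolet light. Superoxide dismutases turn superoxide into hydrogen peroxide, and catalase, glutathione peroxidases and peroxiredoxins remove the peroxide. Glutathione and thioredoxin carry the reducing power, which NADPH-dependent reductases restore. Nfe2l2, known as Nrf2, switches on many of these genes through antioxidant response elements in DNA, and Keap1 marks it for breakdown in unstressed cells. Metallothioneins bind zinc and copper and are switched on by the factor Mtf1 through metal response elements.

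The promoters shown are those of the genes on which the results turn and for which RefSeq gives a window. Msrb1 had the smallest p of the members, Gclm encodes a subunit of the enzyme that limits glutathione synthesis, Gstm5 belongs to the Gstm group with the widest spread, and Mt1 and Mt2 are the metallothioneins. Each window runs 5′ to 3′ from 250 bases before the annotated start to 50 after it (RefSeq, GRCm38.p6). Capitals mark the antioxidant response element core TGACNNNGC on either strand in all windows, and in Mt1 and Mt2 also the metal response element cores TGCACNC and TGCGCNC. The windows lie at chr17:24736343-24736642 (Msrb1), chr3:122245307-122245606 (Gclm), chr3:107895604-107895903 (Gstm5), chr8:94178839-94179138 (Mt1) and chr8:94172368-94172667 (Mt2), all on the plus strand.
Msrb1 promoter: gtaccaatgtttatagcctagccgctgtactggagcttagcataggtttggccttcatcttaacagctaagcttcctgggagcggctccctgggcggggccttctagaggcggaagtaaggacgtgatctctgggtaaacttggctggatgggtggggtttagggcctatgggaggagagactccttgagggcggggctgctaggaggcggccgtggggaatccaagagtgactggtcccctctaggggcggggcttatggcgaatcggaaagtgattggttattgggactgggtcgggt
Gclm promoter: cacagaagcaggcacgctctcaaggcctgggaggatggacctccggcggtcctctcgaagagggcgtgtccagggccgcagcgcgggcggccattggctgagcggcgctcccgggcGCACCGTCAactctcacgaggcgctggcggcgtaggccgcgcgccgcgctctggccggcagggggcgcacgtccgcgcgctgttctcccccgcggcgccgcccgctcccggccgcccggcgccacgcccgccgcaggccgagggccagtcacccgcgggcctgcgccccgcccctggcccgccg
Gstm5 promoter: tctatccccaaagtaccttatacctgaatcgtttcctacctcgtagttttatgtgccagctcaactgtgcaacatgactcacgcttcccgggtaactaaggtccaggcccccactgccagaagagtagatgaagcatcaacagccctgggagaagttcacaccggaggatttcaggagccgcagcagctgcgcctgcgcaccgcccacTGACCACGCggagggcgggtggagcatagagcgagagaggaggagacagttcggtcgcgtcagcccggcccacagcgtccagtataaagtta
Mt1 promoter: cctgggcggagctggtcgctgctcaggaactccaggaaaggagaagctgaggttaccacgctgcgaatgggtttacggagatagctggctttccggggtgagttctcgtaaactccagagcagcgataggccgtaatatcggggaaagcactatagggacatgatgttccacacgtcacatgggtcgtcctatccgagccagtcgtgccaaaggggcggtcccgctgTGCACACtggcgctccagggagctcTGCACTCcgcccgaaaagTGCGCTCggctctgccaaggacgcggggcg
Mt2 promoter: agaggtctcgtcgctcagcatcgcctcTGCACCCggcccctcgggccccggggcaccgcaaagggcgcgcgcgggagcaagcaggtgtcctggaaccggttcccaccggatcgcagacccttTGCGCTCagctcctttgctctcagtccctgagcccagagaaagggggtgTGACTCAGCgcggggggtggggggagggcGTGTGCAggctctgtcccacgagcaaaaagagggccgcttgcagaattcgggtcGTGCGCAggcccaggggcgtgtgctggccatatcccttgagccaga

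In these windows Gclm, Gstm5 and Mt2 each held 1 antioxidant core, and Msrb1 and Mt1 held 0. That of Gclm lay 134 bases before the start, that of Gstm5 42 bases before and that of Mt2 79 bases before. Mt2 held 4 metal cores and Mt1 held 3, and none of them overlapped the antioxidant core. A window was matched for 48 of the 56 member genes, some with more than 1 start. The antioxidant core stood in 9 of their 63 windows (14.3%), against 12.4% of all 32851 windows in the table. A metal core stood in 18 of the 63 (28.6%), against 25.7% of all windows. The members' shares are close to those of all promoters, and a match is a run of letters, not a shown binding site.

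**Figure D1:**
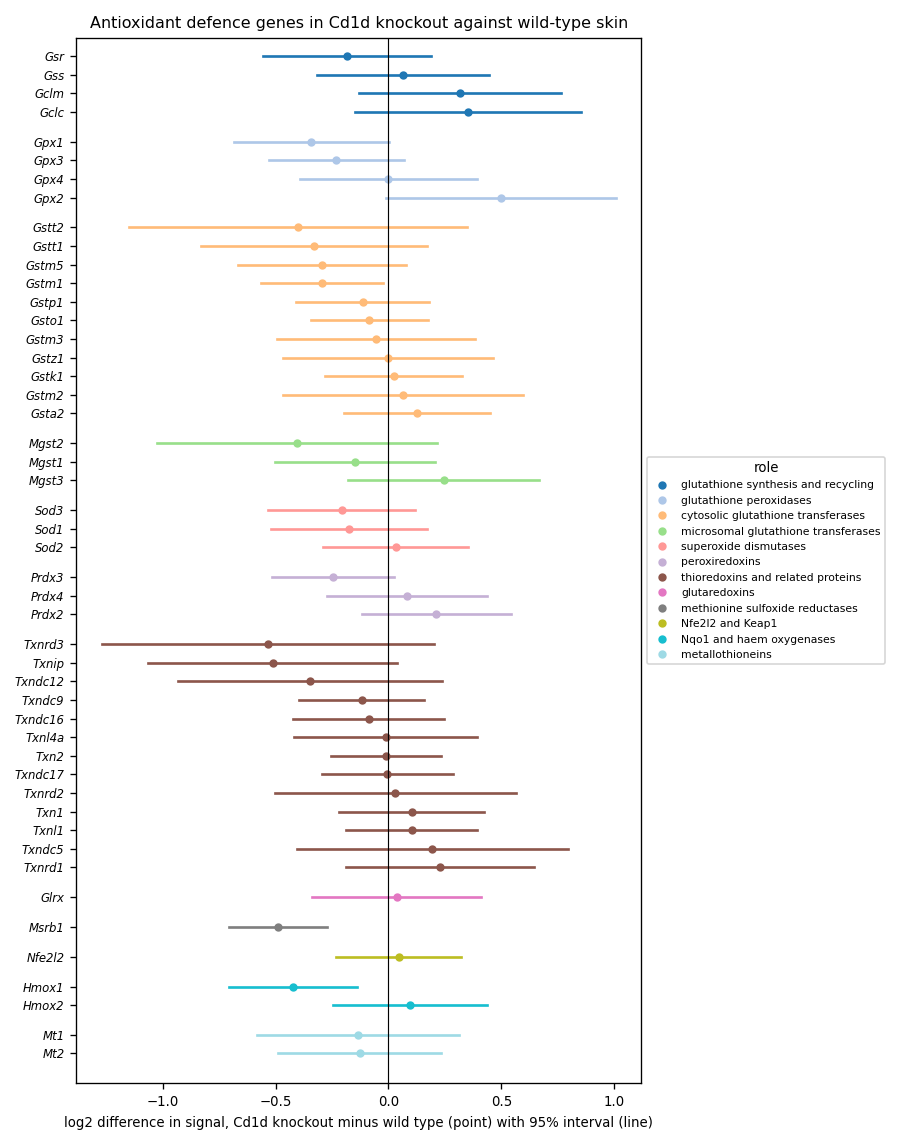
Log2 difference in signal (knockout minus wild type, x axis) of the 48 measured antioxidant genes (rows, 1 probe set a gene), coloured by role; points are limma estimates and lines 95% intervals, from 5 knockout and 4 wild-type mice. Most estimates lie within 0.5 of zero, and the intervals of Msrb1, Hmox1 and Gstm1 do not reach it.

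The antioxidant genes as a list were given no test between knockout and wild-type skin. Their counts and median stand beside those of all probe sets or genes. Of the 56 kept member probe sets, 0 passed limma's test at adjusted p 0.05, against 0.0522% of all 7658 kept probe sets. At an unadjusted p under 0.05, limma gave 4 members (7.14%), against 9.4% of all probe sets. These were Msrb1, Hmox1 and 1 probe set each of Gstm1 and Gstm5, all lower in the knockout, and 3.96% of all probe sets had such a p and were lower. The knockout and wild-type values did not overlap for 2 members (3.57%), against 3.21% of all probe sets. The shares without overlap and at adjusted p 0.05 are near the background, and the share at an unadjusted p is below it. Counting lower values alone, 7.14% of members stands above 3.96% of all probe sets, and rests on 4 probe sets. The median log2 difference was -0.03 over the 48 member genes and 0.01 over all 5855 genes, and 29 member genes (60.4%) were below zero, against 48.7% of all genes. Single differences ranged from -0.54 to 0.50 between the genes.

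The intervals set the size of difference that these mice leave possible. For 49 of the 56 members (87.5%) the 95% interval of the difference lay inside a 2-fold change in either direction, and for 33 (58.9%) inside a 1.5-fold change. The same shares of all probe sets were 87.6% and 52.1%. Centred over the arrays, the list median of each mouse stood at 0.05, 0.01, -0.11, 0.01 and -0.08 in knockout 1 to 5, against -0.01, 0.10, 0.05 and 0.06 in wild type 1 to 4. The groups overlap on this measure.

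Several facts of the whole series bear on these values. Cd1d1, the targeted gene, read 47.6 to 79.6 in the knockout arrays, against 91.0 to 130.0 in the wild-type arrays. Keratinocyte markers were abundant, with summed signals of 13738 to 25322 in knockout and 15119 to 17138 in wild-type skin. Of 4 liver markers on the array, Alb, Apoa1 and Ttr did not pass the filter and read 5.4 to 68.8, while Cyp2e1 did and read 474.9 to 1159.0 in knockouts, against 1013.1 to 2191.1 in wild types (difference -0.90). Hair follicle markers summed to 15075, 39907 and 33514 in knockout 1, 2 and 5, to 3784 and 2455 in knockout 3 and 4, and to 2551 to 4999 in wild-type skin. Macrophage and dendritic cell markers were lower in 13 of 13 measured genes (median -0.29) and those of skeletal muscle in 11 of 11 (median -0.19), 0 of them past limma's threshold. Of 5 red-cell markers 4 were lower (median -1.004), Hba-a1 and Hbb-b2 past it. Deposited values carry 7 decimals in knockout 1 and 2 and wild type 2, 3 and 4, and 9 decimals in the rest, a difference that no label explains. The median difference of the members was -0.01 within the 7-decimal arrays and 0.02 within the 9-decimal arrays, which hold 1 wild-type mouse.

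Msrb1 had the smallest p of the members. It encodes methionine sulfoxide reductase B1, a selenium-containing enzyme that repairs oxidised methionine in proteins. Its signal was 775.7, 847.1, 880.0, 870.0 and 817.0 in knockout 1 to 5, against 1204.6, 1251.9, 1157.0 and 1091.0 in wild type 1 to 4. Every knockout mouse lay below every wild-type mouse, with a gap between the groups that is wider than the range within either. The knockout level was 71.3% of that in wild type (difference -0.49, SE 0.10, 95% interval -0.71 to -0.27, limma adjusted p = 0.175 over all probe sets). The difference was -0.52 within the 7-decimal arrays, -0.49 within the 9-decimal arrays and -0.46 once hair follicle signal was a covariate. It ranged from -0.53 to -0.45 over 22 alternatives, with limma adjusted p from 0.0751 upward, so it never passed.

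Hmox1, the inducible haem oxygenase that breaks down haem in macrophages and stressed cells, was the other member without overlap. It read 1403.7, 1316.8, 1367.0, 1032.0 and 1547.5 in knockout 1 to 5, against 1725.7, 1582.8, 1965.2 and 1838.0 in wild type 1 to 4. The highest knockout and the lowest wild-type mouse were close to each other. The difference was -0.42 (SE 0.13, 95% interval -0.71 to -0.14, limma adjusted p = 0.379). The 7-decimal arrays alone gave -0.40, the 9-decimal arrays alone -0.41 and the hair follicle covariate -0.55. Macrophage and dendritic cell markers moved the same way, with summed signals of 16076 to 20648 in knockouts, against 20290 to 23969 in wild types. Cd74 was the brightest of them, and their single differences ran from -0.41 for Csf1r to -0.06 for Tyrobp. Red-cell markers also moved the same way, and summed to 1399 to 2088 in knockouts, against 3402 to 5136 in wild types. None of these markers was listed at 0, and their part in the Hmox1 value was not tested. Hmox2, the constitutive haem oxygenase, read 93.6 ± 12.4 in knockouts, against 87.3 ± 6.91 in wild types (difference 0.09, limma adjusted p = 0.882).

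**Figure D2:**
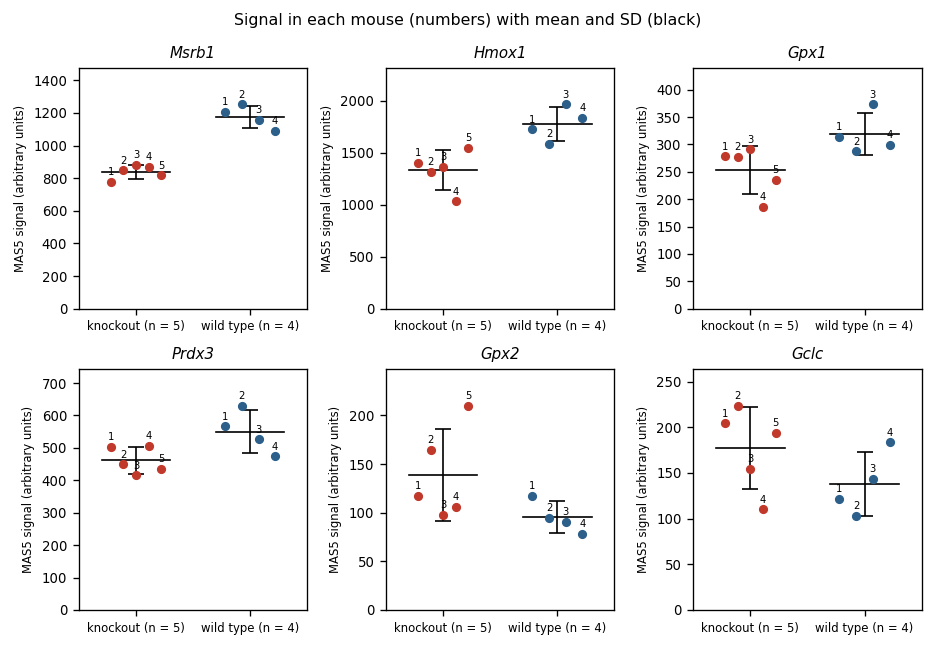
MAS5 signal (y axis, arbitrary units, from 0) of 6 antioxidant genes in each knockout (left, red, n = 5) and wild-type mouse (right, blue, n = 4), numbered by replicate, with group mean and SD in black. Msrb1 and Hmox1 do not overlap between the groups, and Gpx1 and Prdx3 overlap at the edge. Gpx2 is highest in knockout 2 and 5, and Gclc in knockout 1, 2 and 5.

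The regulators of the response could be read only in part. Nfe2l2 stood at 355.5 ± 36.8 in knockouts, against 344.6 ± 36.3 in wild types, a difference of 0.05 with a 95% interval of -0.23 to 0.32 (limma adjusted p = 0.941). Keap1 was too dim to be kept, with at most 26.1 in knockout and 27.5 in wild-type arrays. Nqo1, a quinone reductase and a standard Nrf2 target, was also too dim, with at most 46.6 in knockout and 40.5 in wild-type arrays over its 2 probe sets. To be kept, a probe set had to reach a threshold between 43.4 and 53.3, set array by array, so no change of Keap1 or Nqo1 could be measured here.

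Of the 4 genes of glutathione synthesis and recycling, 3 were higher and 1 lower (median difference 0.19), and 0 passed limma's test. Gclc, the catalytic subunit of the limiting ligase, read 204.3, 223.7, 154.6, 110.1 and 194.2 in knockout 1 to 5, against 121.3, 103.3, 143.4 and 183.5 in wild type 1 to 4. Knockout 1, 2 and 5 were the highest mice and knockout 4 was among the lowest. The difference was 0.35 (SE 0.23, limma adjusted p = 0.663) and 0.07 once hair follicle signal was a covariate. Within the 7-decimal arrays it was 0.62 and within the 9-decimal arrays 0.30. Knockout 1, 2 and 5 are also the arrays with the most hair follicle signal. No wild-type mouse had as much, so the covariate cannot fully separate this signal from genotype. Its part in the Gclc value was not tested. Gclm, the modifier subunit, read 119.6 ± 35.6 in knockouts, against 93.2 ± 8.67 in wild types (difference 0.32, limma adjusted p = 0.663), with its high value of 175.9 in knockout 2. Without that mouse the difference was 0.17. Gss, which completes glutathione, differed by 0.06 at its brighter probe set and by -0.28 at the other. Gsr, which regenerates reduced glutathione with NADPH, differed by -0.18 (limma adjusted p = 0.781) and by -0.35 with the hair follicle covariate.

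Of the 4 measured glutathione peroxidases 1 was higher and 3 lower, among them Gpx4 with a difference that rounds to zero, and 0 passed limma's test. Gpx1, the ubiquitous selenium enzyme of the cytosol, read 278.2, 277.9, 291.3, 185.5 and 235.5 in knockout 1 to 5, against 314.5, 287.6, 373.2 and 299.8 in wild type 1 to 4. Only knockout 3 reached into the wild-type range. The difference was -0.34 (SE 0.16, limma adjusted p = 0.531) and -0.45 with the hair follicle covariate. Gpx2, an epithelial form first known from the gut, had the largest positive difference of the members, at 117.3, 164.4, 97.5, 106.3 and 210.2 in knockout 1 to 5, against 117.4, 94.9, 90.7 and 78.5 in wild type 1 to 4. Knockout 2 and 5, which carry the most hair follicle signal, stood above all other mice. The part of that signal in the Gpx2 values was not tested. The Gpx2 difference was 0.50 (SE 0.23, limma adjusted p = 0.546) and 0.23 with the hair follicle covariate. Within the 7-decimal arrays it was 0.66 and within the 9-decimal arrays 0.14.

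Gpx3, the form secreted into plasma, read 4820 ± 996 in knockouts, against 5575 ± 314 in wild types (difference -0.23, limma adjusted p = 0.636). Its knockout values ran from 3992.8 to 6335.0 and enclosed all wild-type values, and the difference was -0.50 within the 7-decimal arrays and 0.04 within the 9-decimal arrays. Gpx4, which reduces lipid peroxides in membranes, stood at 340.5 ± 52.0 in knockouts, against 345.4 ± 92.4 in wild types, with an interval of -0.39 to 0.39. Gpx5 and Gpx7 were too dim to be kept. Of the 8 measured members known to encode selenoproteins (the 4 kept Gpx genes, the 3 Txnrd genes and Msrb1), 5 were lower and 3 higher, with a median of -0.12. With Selenof, Selenok and Sephs2 from the list of other pathway genes, 7 of 11 were lower and the median was -0.015.

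Glutathione transferases, which couple glutathione to reactive lipids and foreign compounds, were the most numerous group. Of the 11 measured Gst genes, 8 were lower and 3 higher (median -0.09), and 0 passed limma's test. Gstm1, an abundant mu-class form, read 3464.6, 3046.0, 3650.7, 2451.4 and 3319.2 in knockout 1 to 5, against 3481.4, 3968.1, 4084.3 and 3977.9 in wild type 1 to 4. Knockout 3 alone lay inside the wild-type range. The difference was -0.29 (SE 0.12, limma adjusted p = 0.505), while the dimmer second probe set gave -0.12. These mu-class genes lie together on chromosome 3 and are alike in sequence, so probe sets may read more than 1 of them.

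The 9 kept probe sets of Gstm1, Gstm2, Gstm3 and Gstm5 differed among themselves. Gstm5 gave -1.19 (SE 0.40, limma adjusted p = 0.416) at a probe set that read 31.8, 135.8, 186.3, 91.9 and 84.4 in knockout 1 to 5, against 223.7, 240.1, 185.0 and 187.2 in wild type 1 to 4. Only knockout 3 overlapped there, and knockout 1 lay below the filter level. The other probe sets of Gstm5 gave -0.30 and 0.03, and with the hair follicle covariate -0.42 and 0.22. Gstm2 gave -0.54 at one probe set and 0.06 at the other. For Gstm3 both were below zero, at -0.40 and -0.06. In 6 of the 9 probe sets knockout 4 was the lowest knockout mouse, and 16 of all 56 members had their lowest knockout value there.

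**Figure D3:**
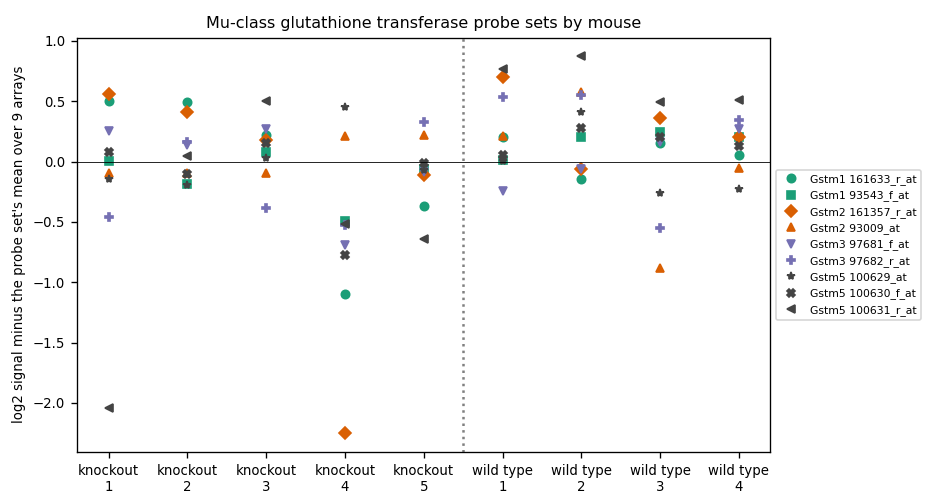
Log2 signal of the 9 kept Gstm probe sets (symbols, coloured by gene) in each mouse (x axis), centred on each probe set's mean over 9 arrays (y axis). Knockout 4 has several low values, with Gstm2 lowest at a raw signal of 47.0, while the plain probe sets of Gstm2 and Gstm5 are not low there.

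Without knockout 4 the Gstm5 value of -0.30 became -0.14 and the Gstm2 value of -0.54 became -0.04. Also without knockout 4, the Gstm1 value of -0.12 became 0.14 and the Gstm3 value of -0.06 became 0.11. The Gstm5 value of -1.19 stayed at -1.19 without knockout 4, and the Gstm3 value of -0.40 became -0.31. The brighter Gstm1 probe set gave -0.20 without that mouse. The Gstm2 value of 0.06 became 0.02 and the Gstm5 value of 0.03 became -0.08. Within the 7-decimal arrays the Gstm2 value of -0.54 was 0.32. It was -1.43 within the 9-decimal arrays and -1.10 with the hair follicle covariate, so these alternatives moved it both ways. The theta-class Gstt1 read 181.7 ± 52.8 in knockouts, against 219.0 ± 9.66 in wild types (difference -0.33, limma adjusted p = 0.694), with its low value of 94.3 in knockout 2. Without that mouse the Gstt1 difference was -0.11, and with the hair follicle covariate it was -0.078. Within the 7-decimal arrays it was -0.67 and within the 9-decimal arrays -0.068. Gsta2, of the alpha class, differed by 0.13, the highest of the Gst genes. Gsta1, Gsta3, Gsta4 and Gstm6 were too dim to be kept. Of the microsomal enzymes, Mgst2 differed by -0.41 (limma adjusted p = 0.697) at a signal close to the filter, and Mgst3 by 0.24 (limma adjusted p = 0.730). With the hair follicle covariate Mgst2 differed by -0.68 and Mgst3 by 0.39.

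Of the 48 measured member genes, 7 lie on chromosome 3, which also carries Cd1d1. They are Gclm, Txnip, Mgst2 and the 4 Gstm genes. Of these 7, 5 were lower in the knockout (71.4%), with a median of -0.29, against 48.5% of all 303 measured genes of that chromosome, with a median of 0.0047. None of the 7 passed limma's test. The 5 lower genes include Gstm1, Gstm3 and Gstm5, whose probe sets may each read several Gstm genes. These genes may therefore share signal and need not be separate cases. Whether lying on the chromosome of Cd1d1 has a part in these values was not tested. Without knockout 4, an alternative chosen after seeing the data, 4 of the 7 were lower and their median was -0.14.

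Of the 3 superoxide dismutases and the 3 measured peroxiredoxins, 0 passed limma's test. Sod1, the copper-zinc enzyme of the cytosol, read 933.3 ± 146 in knockouts, against 1060 ± 210 in wild types (difference -0.18, limma adjusted p = 0.772). Its difference was -0.058 without wild type 2 and -0.29 without wild type 1. Sod2, the mitochondrial manganese enzyme, differed by 0.03 (limma adjusted p = 0.964). Sod3, the extracellular form, read 903.4 ± 117 in knockouts, against 1050 ± 195 in wild types (difference -0.21, limma adjusted p = 0.702). Its difference was -0.099 without wild type 1, -0.33 with the decimal format as a block and -0.41 within the 9-decimal arrays. Prdx3, the mitochondrial peroxiredoxin, read 504.1, 449.2, 415.8, 506.6 and 434.5 in knockout 1 to 5, against 566.4, 630.5, 526.7 and 474.0 in wild type 1 to 4. Only wild type 4 lay within the knockout range. Its difference was -0.25 (SE 0.12, limma adjusted p = 0.574). Prdx2, a cytosolic form abundant in red cells, was higher at both kept probe sets, by 0.21 and 0.15 (limma adjusted p = 0.702 and 0.773). The red-cell markers were lower, and their part in the Prdx2 values was not tested.

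In the thioredoxin group 0 of the 13 genes passed limma's test, with 8 lower and 5 higher. Txn1, the cytosolic thioredoxin, read 1817 ± 196 in knockouts, against 1711 ± 332 in wild types, and Txn2, the mitochondrial thioredoxin, 564.8 ± 23.3 in knockouts, against 571.3 ± 60.9 in wild types. The 95% interval of Txn2 was -0.26 to 0.23. The reductases differed by 0.23 for Txnrd1, 0.03 for Txnrd2 and -0.54 for Txnrd3, whose values ranged from 210.3 to 652.8 in knockout and from 361.2 to 894.2 in wild-type mice. The Txnrd1 difference was 0.090 without wild type 2 and 0.37 without wild type 4. That of Txnrd3 was -0.31 without knockout 4, -0.92 within the 9-decimal arrays and -0.83 with the hair follicle covariate. Glrx, a glutaredoxin, differed by 0.04 (limma adjusted p = 0.967). The protein disulfide isomerase relative Txndc12 differed by -0.35 (limma adjusted p = 0.721). Its difference was -0.16 without knockout 3, -0.017 within the 7-decimal arrays and -0.53 within the 9-decimal arrays.

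Txnip, which binds and inhibits thioredoxin, split the wild-type mice. Its brighter probe set read 1395.4, 1257.9, 1472.0, 1669.0 and 1293.3 in knockout 1 to 5, against 1330.8, 1359.4, 2949.9 and 3069.7 in wild type 1 to 4. Wild type 1 and 2 lay inside the knockout range, and wild type 3 and 4 far above it. The difference of -0.51 (SE 0.25, limma adjusted p = 0.566) became -0.33 without wild type 3 and -0.31 without wild type 4. It was -0.80 within the 7-decimal arrays and 0.14 within the 9-decimal arrays. Wild type 3 and 4 also stood apart for Gstt2 and for Cat, a gene outside the members. Gstt2, a theta-class transferase, read 144.7, 115.8, 109.5, 101.7 and 83.9 in knockout 1 to 5, against 85.9, 84.1, 232.5 and 259.2 in wild type 1 to 4. Cat, catalase, read 383.0, 238.4, 315.1, 370.5 and 311.7 in knockout 1 to 5, against 305.3, 259.8, 540.1 and 561.5 in wild type 1 to 4 (difference -0.30, limma adjusted p = 0.735). Within the 9-decimal arrays Gstt2 differed by 0.19 and Cat by 0.12. Within the 7-decimal arrays Gstt2 differed by -0.41 and Cat by -0.50. Wild type 3 and 4 belong to the 7-decimal arrays, as does wild type 2. Of the liver markers Cyp2e1 was also highest in wild type 3 and 4, at 2191.1 and 1967.4. The other mice read at most 1159.0. Alb was highest there too, at 59.7 and 68.8. Apoa1 was not, at 7.9 and 7.6, against 12.3 in knockout 1. Nor was Ttr, at 10.3 and 34.9, against 49.0 in knockout 5. Alb, Apoa1 and Ttr did not pass the filter. The part of the format and of these markers in the values of Txnip, Gstt2 and Cat was not tested.

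The metallothioneins varied from mouse to mouse in parallel. Mt1 read 1224.5, 1376.2, 844.3, 1012.9 and 927.8 in knockout 1 to 5, against 982.7, 951.0, 1792.8 and 1098.7 in wild type 1 to 4. Mt2 read 4364.6, 4635.1, 3383.6, 3020.5 and 2897.5 in knockout 1 to 5, against 3671.2, 3863.5, 4982.9 and 3364.2 in wild type 1 to 4. For both genes wild type 3 was the highest mouse, followed by knockout 2 and knockout 1. The group differences were -0.14 for Mt1 and -0.13 for Mt2 (limma adjusted p = 0.865 and 0.839). With the decimal format as a block they were 0.01 each, so no direction can be given. Outside the members, the 5 genes whose log2 signal followed the mean of Mt1 and Mt2 most closely over the 9 arrays were Tpd52l2, Hspbp1, Slc39a1, Fancc and Thap12, with Pearson correlations of 0.828 to 0.869. They were picked from all measured genes, as a description.

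**Figure D4:**
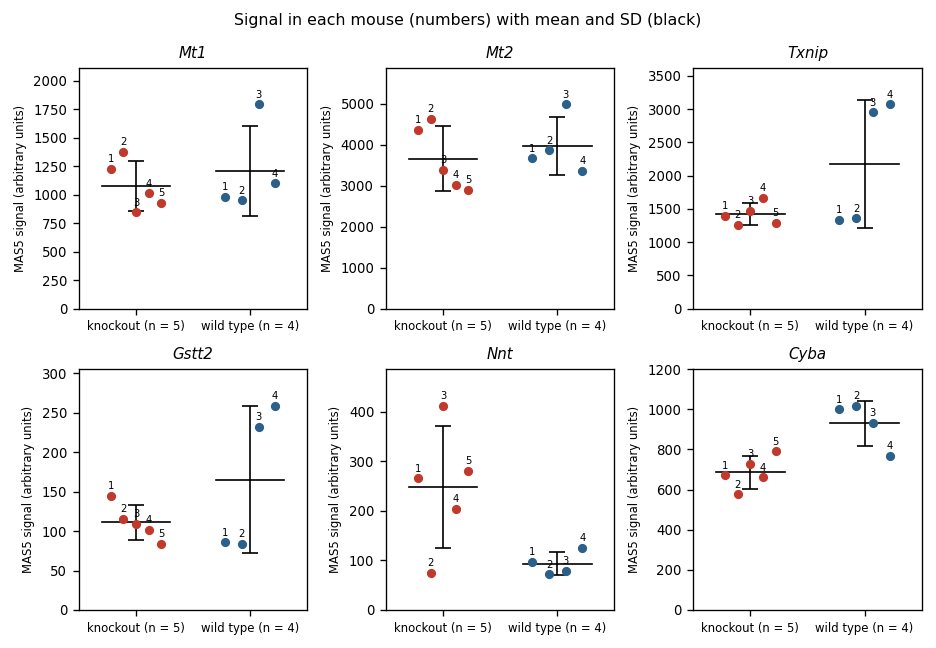
MAS5 signal (y axis, arbitrary units, from 0) of Mt1, Mt2, Txnip, Gstt2, Nnt and Cyba in each knockout (left, red, n = 5) and wild-type mouse (right, blue, n = 4), numbered by replicate, with group mean and SD in black. Txnip and Gstt2 are high in wild type 3 and 4, and Nnt is high in all knockout mice but knockout 2.

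Among the other genes of the pathway, 40 of 62 listed were measured. Of these 17 were higher and 23 lower, with a median of -0.09, and 0 passed limma's test in either direction. At an unadjusted p under 0.05, limma gave 7 (17.5%), 4 higher and 3 lower, against 9.4% of all probe sets. Cyba, a subunit of the superoxide-producing NADPH oxidase, had the smallest p, at 671.7, 576.0, 730.0, 660.6 and 791.4 in knockout 1 to 5, against 999.4, 1018.9, 932.9 and 768.8 in wild type 1 to 4. Only wild type 4 came below the highest knockout mouse. The difference was -0.44 (limma adjusted p = 0.363). Cybb and Ncf1, other oxidase genes on the list, differed by -0.15 each (limma adjusted p = 0.875 and 0.795). The macrophage markers, whose cells are rich in this oxidase, were lower too. Their part in the Cyba value was not tested. Sqstm1, which binds Keap1, differed by -0.50 (limma adjusted p = 0.405), by -0.75 within the 7-decimal and 0.05 within the 9-decimal arrays. Cul3, the ubiquitin ligase that works with Keap1, differed by 0.42 (limma adjusted p = 0.463).

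Nnt had the largest difference of these genes. It encodes the mitochondrial transhydrogenase that makes NADPH for glutathione and thioredoxin reduction, and the substrain C57BL/6J is known to carry a deletion within it. Its signal was 265.5, 74.3, 412.1, 204.3 and 280.7 in knockout 1 to 5, against 97.4, 71.6, 79.5 and 125.2 in wild type 1 to 4. Knockout 2 lay among the wild-type mice, and the other 4 knockout mice lay above all of them. The difference was 1.24 (SE 0.40, 95% interval 0.36 to 2.12, limma adjusted p = 0.406). Without knockout 2 it was 1.62 and passed limma's test (adjusted p = 0.0366), in only 1 of 22 alternatives. Knockout 2 is the lowest knockout mouse, so leaving it out must enlarge the difference. The 7-decimal arrays alone gave 0.65 (limma adjusted p = 0.747) and the 9-decimal arrays alone 1.56. Whether the mice differed in their Nnt allele was not tested.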

How the data were processed

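RNA of whole skin from 5 Cd1d knockout and 4 wild-type mice was measured on Affymetrix MG-U74 arrays, 1 mouse an array, and the signals were made with Microarray Suite 5.0, per the labels. The deposited values are natural log signals. This was settled from the numbers, since the exponential of 100% of them is a multiple of 0.1 (tolerance 0.002) and the trimmed mean of each array is 200.1. Scaling settings and detection calls are not given in the sources used here. The number of mice limits the precision, and dim probe sets are the least precise.

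The deposited values were converted to log2. The 66 control probe sets were left out, and so were probe sets that reached their array's 40th percentile in fewer than 4 arrays. R 4.3.3 with limma 3.58.1 (lmFit, eBayes with trend, two-sided, Benjamini-Hochberg over all 7658 kept probe sets) compared knockout with wild type. It was tested on simulated data. A gene was represented by its brightest kept probe set. The rule for naming genes took members without overlap, the smallest p values up to 24 genes, the central enzymes and regulators, the extremes of each role, the 4 other pathway genes with the smallest p, the 5 genes most like the metallothioneins, and genes whose probe sets differ in sign. Genes outside it were chosen after their values were seen. Members and lists were chosen with earlier results of these data known. Symbols came from the platform annotation, and chromosomes from GRCm38.p6 through Entrez identifiers, which matched all 56 member genes. The labels give no pairing of mice by replicate number, and each is a separate animal. Same-numbered mice deviated together with correlations of 0.11, -0.01, -0.05 and 0.02, which cannot settle whether any were paired. Alternatives changed the filter, scaling, pseudocount (16 or 64), trend, weights, arrays and covariates.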

Additional observations from a re-analysis of the deposited data

Results flagged for a closer look

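Of the members, 2 probe sets had 1 mouse far from the other 4 of its group. Both are mu-class transferases in knockout 4. Gstm2 read 47.0 there, against 206.7 to 330.5 in the other knockout mice, and Gstm5 read 1447.9, against 2296.9 to 2748.8. Among 112 groups examined, chance would flag about 1 in 20.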

How the results depend on the processing

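The count of members past limma's test stayed at 0 under each of the 24 alternatives run for it. The median difference of the member genes ran from -0.08 to -0.01 with 1 mouse left out, and the replicate block gave -0.03. Giving each gene its median probe set in place of its brightest moved it to -0.10. The 4 members at an unadjusted p under 0.05 became 8 with array weights, 7 with the replicate block, 9 with the hair follicle covariate, 7 within the 7-decimal arrays, 0 within the 9-decimal arrays and 4 to 7 with 1 mouse left out. They became 2 without probe sets whose name marks possible cross-hybridisation, an alternative chosen after seeing the data. The block used replicate numbers, for which the labels give no pairing. Nnt passed only without knockout 2 (1.62).

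Of 45 single differences examined, those of Msrb1, Hmox1, Prdx3 and Cyba alone stayed within 1.5 times their value under each alternative run for them, and 12 did with each mouse left out. Some changed sign, and the cause was not tested. Within the 9-decimal arrays, which hold 1 wild-type mouse, the differences were 0.14 for the brighter Txnip, 0.043 for Gpx3, 0.19 for Gstt2, 0.15 for Sod1, 0.012 for Gsr, -0.15 for Gsta2, 0.070 for the Gstm3 value of -0.06, -0.10 for the Gstm2 value of 0.06, -0.18 for Glrx, 0.12 for Cat and 0.050 for Sqstm1. Within the 7-decimal arrays they were 0.32 for the Gstm2 value of -0.54, 0.16 for Mt2, 0.32 for the dimmer Txnip, 0.075 for Mt1, 0.48 for the dimmer Gstm1, 0.073 for the Gstm3 value of -0.06, -0.052 for Sod2 and -0.14 for the Gstm5 value of 0.03. With the decimal format as a block they were 0.0057 for Mt2, 0.013 for Mt1, 0.053 for the dimmer Gstm1, 0.072 for the Gstm3 value of -0.06, -0.025 for the Gstm2 value of 0.06, -0.0045 for Sod2, -0.065 for Glrx and -0.039 for the Gstm5 value of 0.03. Array weights gave 0.018 for the dimmer Gstm1 and 0.019 for the Gstm3 value of -0.06. Median centring gave -0.012 for Sod2, -0.0090 for Glrx and -0.013 for the Gstm5 value of 0.03, and quantile normalization gave -0.0053 for Sod2. The hair follicle covariate gave -0.055 for the brighter Gss, and the replicate block, which drops knockout 5, gave -0.030 for Glrx. With 1 mouse left out in turn, the ranges that cross 0 were -0.42 to 0.012 for the dimmer Txnip, -0.23 to 0.071 for Mt1, -0.26 to 0.14 for the dimmer Gstm1, -0.018 to 0.16 for the brighter Gss, -0.019 to 0.090 for Nfe2l2, -0.15 to 0.11 for the Gstm3 value of -0.06, -0.22 to 0.27 for the Gstm2 value of 0.06, -0.028 to 0.13 for Sod2, -0.10 to 0.14 for Glrx and -0.077 to 0.18 for the Gstm5 value of 0.03.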
